A study of Mus musculus with 6 samples.

Results

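The platelet-derived growth factor (PDGF) and fibroblast growth factor (FGF) systems were described here through 10 genes, chosen by name from the 55335 gene rows of the count table: the ligands Pdgfa, Pdgfb, Pdgfc, Fgf2, Fgf7 and Fgf21 and the receptors Pdgfra, Pdgfrb, Fgfr1 and Fgfr2. No measured value entered the choice of the genes, but it was made with earlier results of these data known. All 10 had a row, and 9 passed the filter on low counts; Fgf21 did not.

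The study asked which transcripts change when mouse embryonic fibroblasts (MEF, connective tissue cells grown from the embryo) squeeze through narrow pores. RNA-seq of the transmigrated cells, named Confine, was compared with that of the parental cells, named Ctrl. Ctrl and Confine cells carried the WT genotype, were labelled as the cell line MEFs and shared a culture medium with serum. Confine cells were placed on top of a transwell insert, a membrane with 3 μm pores, and the cells that had passed it were collected at 15 h; whether Ctrl cells were ever on a membrane was not given in the sources used here. The study's transwell protocol, written for inserts with wider pores, had serum only below the membrane; whether the sequenced cells met the same serum difference is not stated there.

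The deposited table had 6 columns, 3 for each group. The columns of Confine replicates 1 and 2 held the same count in every row and were counted as 1 sample, called Confine replicate 1 below, so 3 Ctrl libraries were compared with 2 Confine libraries. Total counts lay between 22287210 and 32537550 per library. The labels do not say that replicates came from separate cultures and give no batch, so the p-values measure the spread between these samples, which may be technical. Since the cells were sequenced in bulk, fewer cells of a type and less RNA per cell cannot be told apart.

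PDGFs are secreted dimers. The A and C chains bind the receptor PDGFRα and the B chain binds both PDGFRα and PDGFRβ, and these receptors drive growth and chemotaxis of mesenchymal cells such as fibroblasts. Most FGFs are held by heparan sulfate next to the cell surface and activate their tyrosine kinase receptors together with it. FGF7 and FGF10 are made by mesenchyme and act on the epithelial splice form of FGFR2, FGF2 acts on many cells through FGFR1, and FGF21 is a circulating hormone that needs the co-receptor β-Klotho and is switched on by the stress factor ATF4.

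RefSeq start windows, the 250 bases before each annotated start in the build GRCm38.p6, were found for 7 of the 10 genes and numbered 8, since Pdgfa had 2. Of these, 4 are shown for the genes on which the results turn: Pdgfa and Pdgfra, which rose in Confine, Fgfr2, which fell, and Fgf21, the least abundant member. They are written 5′ to 3′ on the strand of the gene, and capitals mark matches to the motifs named below. The Pdgfa window lies on the minus strand at chr5:138994282-138994398 and is given only outside GENCODE exons. The Pdgfra window is on the plus strand at chr5:75152001-75152250, and those of Fgfr2 (chr7:130266809-130267058) and Fgf21 (chr7:45615491-45615740) are on the minus strand, all 3 outside any GENCODE exon.
Pdgfa: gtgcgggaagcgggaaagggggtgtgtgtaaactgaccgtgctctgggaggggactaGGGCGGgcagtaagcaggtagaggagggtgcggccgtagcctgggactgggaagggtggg
Pdgfra: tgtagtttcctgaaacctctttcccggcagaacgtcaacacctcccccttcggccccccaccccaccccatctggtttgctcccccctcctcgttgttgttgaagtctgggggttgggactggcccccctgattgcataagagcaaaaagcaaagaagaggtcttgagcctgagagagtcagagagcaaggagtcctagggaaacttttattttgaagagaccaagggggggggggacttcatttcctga
Fgfr2: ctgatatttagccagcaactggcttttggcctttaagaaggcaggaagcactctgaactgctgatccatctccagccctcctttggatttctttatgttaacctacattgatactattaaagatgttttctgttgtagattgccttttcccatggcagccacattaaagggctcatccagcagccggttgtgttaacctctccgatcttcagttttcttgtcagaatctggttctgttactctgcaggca
Fgf21: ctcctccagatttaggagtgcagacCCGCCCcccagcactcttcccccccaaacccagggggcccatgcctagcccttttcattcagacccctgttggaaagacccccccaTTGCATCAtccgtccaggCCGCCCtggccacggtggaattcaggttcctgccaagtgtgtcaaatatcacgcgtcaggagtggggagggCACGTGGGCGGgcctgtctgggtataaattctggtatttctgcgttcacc

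The windows differed in their content of CG dinucleotides, of which the median window among 32851 held 6. The full window of Pdgfa shown above held 19 CG dinucleotides, more than 80.3% of all windows, and its other window held 28, while the Fgf2 window held 20; the latter windows overlap annotated exons and are not printed. The Fgfr2 window held 2, with 18.8% of all windows holding fewer, and the Pdgfra window held 4. On both strands, the GC box GGGCGG, which Sp-family factors bind, was matched in both Pdgfa windows, once in the Fgf2 window at 49 bases before the start and 3 times in the Fgf21 window, and it occurred in 32.7% of all windows. The Fgf21 window also matched the ATF4 element TGATGNAA at 139 bases before the start, a motif in 3.45% of all windows, and the hypoxia response element core ACGTG on both strands, at 50 and 49 bases and overlapping a GC box, a motif in 16.6% of all windows. The Pdgfc window held a CArG box, the letters that serum response factor binds, at 17 bases before the start, against 1.47% of all windows. The AP-1 element TGANTCA, found in 6.75% of all windows, was in none of the 8, and no motif was matched for Pdgfra, Fgf7 or Fgfr2. These matches describe letters only.

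Of the 10 genes, Pdgfa, Pdgfra, Fgf2 and Fgfr1 were upregulated in Confine, Fgfr2 was downregulated, Pdgfb, Pdgfc, Pdgfrb and Fgf7 did not pass the test, and Fgf21 was too low to be tested. A gene is said to have risen or fallen where the quasi-likelihood test of edgeR gave a p, adjusted by Benjamini-Hochberg over all 15881 genes tested, under 0.05. These 5 calls stand beside a background of 23.0% of all tested genes called, 12.8% higher and 10.2% lower in Confine. With an absolute log2 fold change above 1.5 also required, Fgfr2 alone among the members was called, against 8.00% of all tested genes (4.89% higher and 3.11% lower). Both Confine values lay above every Ctrl value in 5 of the 9 tested members and below in 2, and the groups overlapped in the other 2; over all tested genes the groups were separate in 49.5%, with Confine above in 25.9% and below in 23.6%. Over the 9 tested members the log2 fold change had a median of 0.48, and over all tested genes it was -0.00207.

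**Figure D1:**
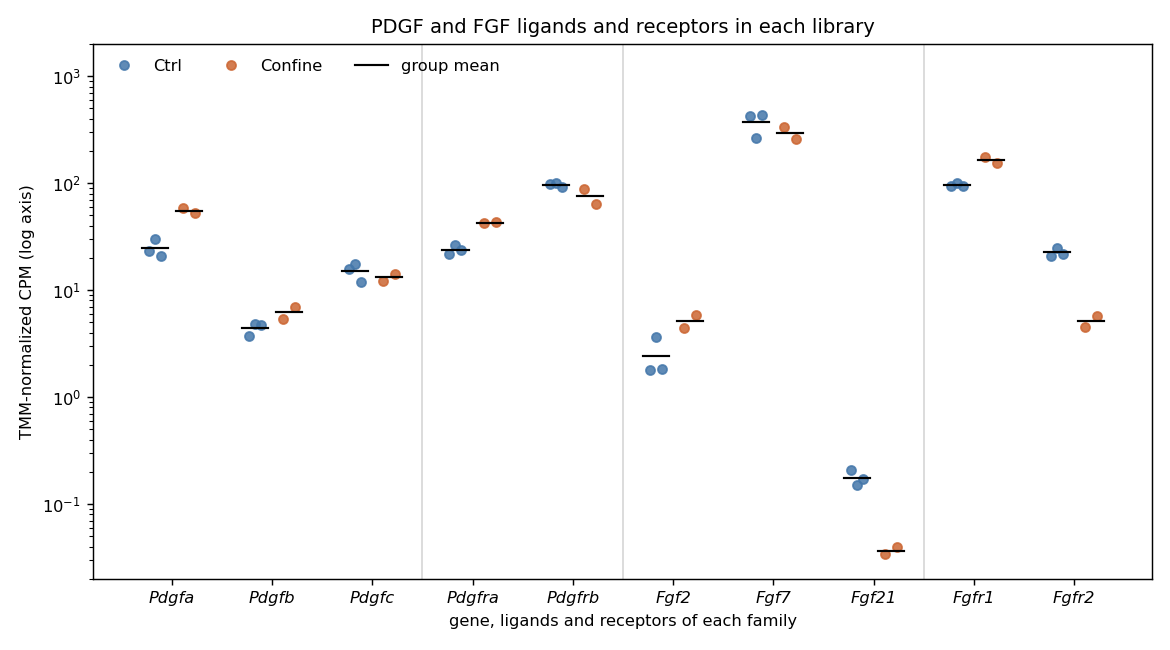
CPM (TMM-scaled, log axis) of the 10 genes in each library, with Ctrl and Confine points in separate colours and a line at each group mean. The Confine points of Pdgfa, Pdgfra and Fgfr1 lie above every Ctrl point, those of Fgfr2 lie below, and those of Pdgfc and Fgf7 are mixed with Ctrl.

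Pdgfa (ENSMUSG00000025856.15), at chr5:138976014-138997370 on the minus strand in GRCm38, encodes the PDGF A chain. The Ctrl libraries held 671, 790 and 485 counts, and 1730 and 1321 were counted in Confine. As CPM, counts scaled to each library's TMM-corrected total, the Ctrl values were 23.2, 29.9 and 20.6 and the Confine values 58.4 and 52.4. Both Confine libraries were above every Ctrl library. The mean rose from 24.6 ± 4.77 (SD, n = 3) to 55.4 ± 4.24 CPM (SD, n = 2), a 2.26-fold increase with a log2 fold change of 1.17 (SE 0.19) and an adjusted p of 0.00019 by edgeR. The exons of Pdgfa overlap those of the antisense gene 6330403L08Rik over 813 bases, 26.1% of the Pdgfa exon length, and whether counting used the strand was not given in the sources used here. That antisense gene had 100, 157 and 113 counts in Ctrl and 144 and 84 in Confine (log2 fold change -0.20, adjusted p 0.688).

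The other PDGF ligands did not pass the test. Pdgfb (ENSMUSG00000000489.7, chr15:79995874-80014977, minus strand), which encodes the B chain known for recruiting mural cells to vessels, had 108, 128 and 111 counts in Ctrl and 160 and 176 in Confine, or 3.73, 4.84 and 4.72 against 5.41 and 6.99 CPM. The 2 Confine values were above the 3 Ctrl values, as were those of 25.9% of all tested genes, but the log2 fold change of 0.48 (95% interval -0.064 to 1.03) had an adjusted p of 0.203. Pdgfc (ENSMUSG00000028019.9, chr3:81036416-81214040, plus strand) encodes the C chain, which is secreted in a latent form and cut by proteases. It had 452, 465 and 277 counts in Ctrl and 357 and 359 in Confine, or 15.6, 17.6 and 11.8 against 12.1 and 14.3 CPM. The groups overlapped, and the log2 fold change was -0.19 (95% interval -0.65 to 0.27, adjusted p 0.593).

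Among the PDGF receptors, Pdgfra rose while the fitted change of Pdgfrb was negative and did not pass the test. Pdgfra (ENSMUSG00000029231.15, chr5:75152292-75198215, plus strand) encodes the receptor that all PDGF chains but D can bind. It had 633, 697 and 556 counts in Ctrl and 1251 and 1089 in Confine, which are 21.9, 26.3 and 23.6 against 42.3 and 43.2 CPM. The groups were separate, and the mean rose from 24.0 ± 2.25 to 42.8 ± 0.688 CPM, a 1.78-fold increase (log2 fold change 0.84, SE 0.18, adjusted p 0.00212). Pdgfrb (ENSMUSG00000024620.11, chr18:61045150-61085061, plus strand) encodes the receptor of the B and D chains and is a marker of mural cells as well as fibroblasts. It had 2833, 2673 and 2158 counts in Ctrl and 2590 and 1598 in Confine, or 97.9, 101 and 91.8 against 87.5 and 63.4 CPM. Both Confine values were below the Ctrl values, as for 23.6% of all tested genes, and they lay far apart; the log2 fold change was -0.36 (95% interval -0.76 to 0.040) with an adjusted p of 0.194. With library size alone as the scaling, which moves the median gene by -0.208 on the log2 scale, it was -0.57 with an adjusted p of 0.0322.

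The FGF ligands spanned the widest range of levels. Fgf2 (ENSMUSG00000037225.13, chr3:37348346-37410108, plus strand), basic FGF, a mitogen released without a signal peptide, had 52, 96 and 43 counts in Ctrl and 131 and 148 in Confine, or 1.80, 3.63 and 1.83 against 4.43 and 5.88 CPM. All Ctrl values were below the Confine values, with Ctrl replicate 2 the nearest to them. The mean rose from 2.42 ± 1.05 to 5.15 ± 1.03 CPM, 2.12-fold (log2 fold change 1.09, SE 0.33, adjusted p 0.023). This call was the least secure of the 5. The adjusted p was 0.091 without Ctrl replicate 1, 0.0618 without Ctrl replicate 3, 0.225 without Confine replicate 3 and 0.0635 with library size alone, with log2 fold changes between 0.87 and 0.91. Fgf2 shares 640 exon bases, 9.44% of its exon length, with Nudt6 on the other strand, which had between 10 and 28 counts per library (log2 fold change 0.40, adjusted p 0.64).

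Fgf7 (ENSMUSG00000027208.14, chr2:126034658-126091185, plus strand), keratinocyte growth factor, was the most abundant member. It had 12174, 6980 and 10105 counts in Ctrl and 9853 and 6560 in Confine, or 421, 264 and 430 against 333 and 260 CPM. The groups overlapped, since Ctrl replicate 2 lay below Confine replicate 1, and the log2 fold change of -0.32 (95% interval -0.78 to 0.13) had an adjusted p of 0.316. Without Ctrl replicate 2 it was -0.52 with an adjusted p of 0.0364. Fgf21 (ENSMUSG00000030827.5, chr7:45613886-45615490, minus strand) had 6, 4 and 4 counts in Ctrl and 1 and 1 in Confine, at most 0.207 CPM in any library. Summed over libraries these were 14 counts against 2, a ratio of Confine to Ctrl of 0.206 after scaling (exact 95% interval 0.0227 to 0.896, counting error only). Kept in the fit without a filter, it had a log2 fold change of -2.15 and an adjusted p of 0.435, so no difference was called at this depth. Its co-receptor genes were also near 0, with Klb at 2, 0 and 3 counts in Ctrl and 0 and 2 in Confine and Kl at 0 in all 5 libraries.

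The 2 FGF receptors moved in opposite directions. Fgfr1 (ENSMUSG00000031565.18, chr8:25513654-25575718, plus strand), the main FGF receptor of mesenchymal cells, had 2743, 2646 and 2191 counts in Ctrl and 5208 and 3915 in Confine, or 94.8, 100.003 and 93.2 against 176 and 155 CPM. The Ctrl values lay close together and both Confine values were above them. The mean rose from 96.0 ± 3.57 to 166 ± 14.5 CPM, 1.73-fold (log2 fold change 0.79, SE 0.17, adjusted p 0.00248). Without Confine replicate 1 the log2 fold change was 0.70 and the adjusted p 0.0566.

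Fgfr2 (ENSMUSG00000030849.18, chr7:130162451-133123350, minus strand) encodes the receptor whose epithelial and mesenchymal splice forms bind different FGFs. It had 602, 662 and 511 counts in Ctrl and 134 and 145 in Confine, or 20.8, 25.0 and 21.7 against 4.53 and 5.76 CPM. Each Confine library was below every Ctrl library by a wide margin. The mean fell from 22.5 ± 2.22 to 5.14 ± 0.870 CPM, 4.38-fold lower (log2 fold change -2.13, SE 0.23, adjusted p 1.49e-06). The annotation holds 27 Fgfr2 transcripts, and counts per gene do not separate the splice forms. The start window shown above lies inside the annotated span of the gene, which reaches far upstream of that window. Exons of Fgfr2 share 314 bases, 3.04% of its exon length, with Ctbp2 on the same strand, which did not pass the test (log2 fold change 0.39, adjusted p 0.148).

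**Figure D2:**
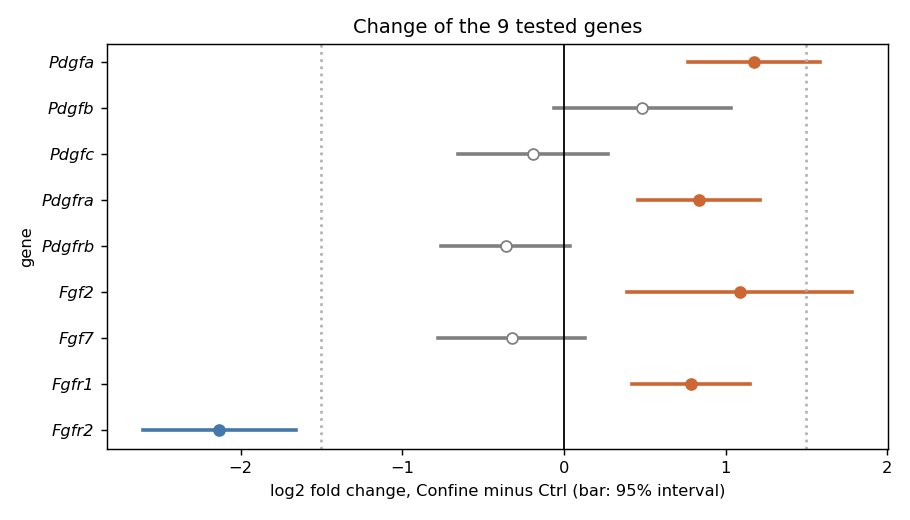
Log2 fold change of Confine over Ctrl (edgeR) of the 9 tested genes, with bars for the 95% interval and filled points for an adjusted p under 0.05; dotted lines mark the cutoff of 1.5 in each direction. The intervals of Pdgfa, Fgf2, Pdgfra and Fgfr1 lie above 0, that of Fgfr2 lies between -2.61 and -1.66, and those of Pdgfb, Pdgfc, Pdgfrb and Fgf7 cross 0.

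Levels of different genes were compared per length, as reads per kilobase of merged exon length on the CPM scale (RPKM). In Ctrl, Fgf7 stood first at 114 ± 28.7 RPKM, followed by Pdgfrb at 17.7 ± 0.858, Fgfr1 at 9.72 ± 0.362, Pdgfa at 7.87 ± 1.53, Pdgfc at 2.95 ± 0.579, Pdgfra at 2.39 ± 0.225, Fgfr2 at 2.18 ± 0.215, Pdgfb at 1.06 ± 0.146, Fgf2 at 0.357 ± 0.155 and Fgf21 at 0.185 ± 0.0300 RPKM. The ranges of Fgfr1 and Pdgfa, of Pdgfc and Pdgfra, and of Pdgfra and Fgfr2 overlapped, so the order within these pairs is not resolved. In Confine, Fgf7 was still first, at 91.3 ± 15.8 RPKM, and Pdgfa followed at 17.8 ± 1.36, with Fgfr1 at 16.8 ± 1.47 and Pdgfrb at 13.8 ± 3.10 RPKM. The ranges of Pdgfa and Fgfr1, and of Fgfr1 and Pdgfrb, overlapped. Pdgfra stood at 4.26 ± 0.0687, Pdgfc at 2.59 ± 0.305, Pdgfb at 1.49 ± 0.269, Fgf2 at 0.760 ± 0.151, Fgfr2 at 0.498 ± 0.0842 and Fgf21 at 0.0386 ± 0.00440 RPKM. Fgfr2 stood above Pdgfb in Ctrl and below it in Confine. The exon length chosen bears on this order: with the exons of GENCODE's basic transcript set, an alternative added after seeing the data, Fgfr1 was at 18.4 ± 0.685 RPKM in Ctrl, overlapping Pdgfrb, and at 31.8 ± 2.78 RPKM in Confine, above Pdgfa and Pdgfrb. With these lengths Fgfr2 was at 4.40 ± 0.434 RPKM in Ctrl and 1.01 ± 0.170 RPKM in Confine, where it was again below Pdgfb without overlap but overlapped Fgf2 (0.789 ± 0.157). Among all tested genes, the mean level of Fgfr2 went from percentile 44.7 to percentile 18.4, that of Pdgfa from 70.4 to 82.6 and that of Pdgfra from 46.6 to 58.1.

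The shares of Pdgfa and Pdgfra among the members of their families were higher in both Confine libraries than in any Ctrl library. Pdgfa was 65.2%, 67.5% and 65.7% of the summed RPKM of Pdgfa, Pdgfb and Pdgfc in Ctrl, and 83.6% and 79.0% in Confine. The share of Pdgfc went from 24.8% ± 1.99 to 11.9% ± 1.82 and that of Pdgfb from 9.11% ± 1.88 to 6.84% ± 1.48. The sum of these ligands was 11.9 ± 2.11 RPKM in Ctrl and 21.9 ± 0.786 RPKM in Confine. Shares and sum leave out Pdgfd, which is not a member and stood at 4.78 ± 0.715 RPKM in Ctrl and 1.99 ± 0.324 RPKM in Confine. Among the PDGF receptors, Pdgfra took 10.9%, 12.5% and 12.3% in Ctrl and 20.9% and 27.1% in Confine. The ratio of Pdgfrb to Pdgfra was accordingly 8.19, 7.02 and 7.10 in Ctrl and 3.79 and 2.69 in Confine. In both groups Pdgfrb remained the more abundant receptor per length, and the sum of both was 20.1 ± 0.979 RPKM in Ctrl and 18.0 ± 3.04 RPKM in Confine.

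Among the FGF receptors Fgfr1 and Fgfr2, the Fgfr2 share was 17.3%, 19.3% and 18.2% in Ctrl and 2.40% and 3.42% in Confine. The ratio of Fgfr1 to Fgfr2 was 4.77, 4.18 and 4.48 in Ctrl and 40.6 and 28.2 in Confine. The groups did not overlap in any of these receptor ratios. Their sum was 11.9 ± 0.564 RPKM in Ctrl and 17.3 ± 1.38 RPKM in Confine, and with the basic transcript lengths it was 22.8 ± 1.09 and 32.8 ± 2.61 RPKM. Of the summed RPKM of Fgf2, Fgf7 and Fgf21, Fgf7 was 99.5% ± 0.285 in Ctrl and 99.1% ± 0.320 in Confine. This sum leaves out Fgf10, which is not a member and stood at 10.7 ± 1.82 RPKM in Ctrl and 7.15 ± 0.246 RPKM in Confine. Shares and ratios are given as descriptions, since an exact permutation test of 3 against 2 libraries can reach no p below 0.1.

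**Figure D3:**
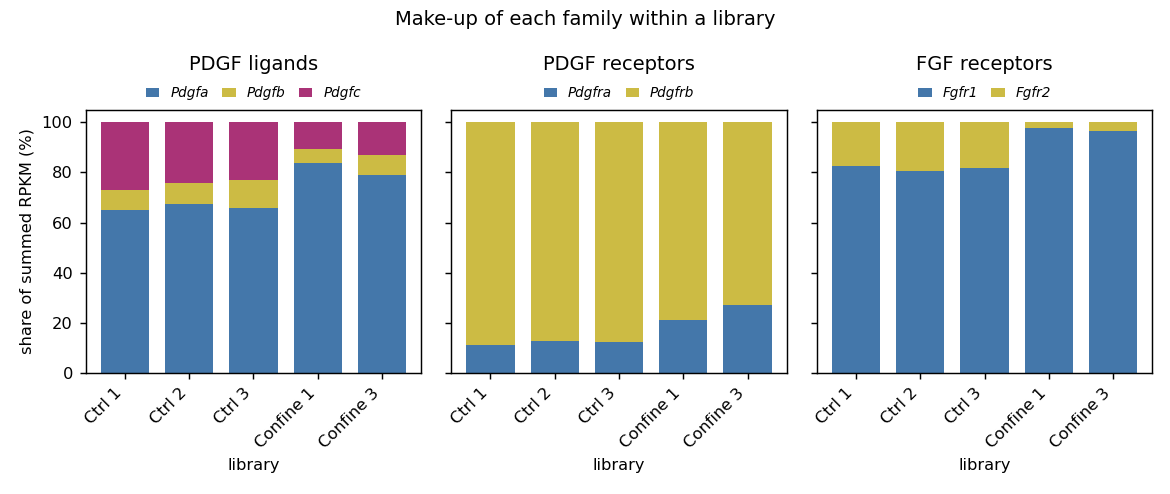
Percent of summed RPKM taken by each gene among Pdgfa, Pdgfb and Pdgfc, among the PDGF receptors and among the FGF receptors, as a stacked bar for each library from 0 to 100%. The Pdgfa and Pdgfra parts are larger in both Confine libraries than in any Ctrl library, and the Fgfr2 part is between 17.3% and 19.3% in Ctrl and at most 3.42% in Confine.

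For each called member, the 2 genes of most similar pattern were taken from 11794 genes with a mean of at least 50 counts, by the distance between centred log2 CPM over the 5 libraries. Denr (distance 0.109) and Zswim6 (0.119) were nearest to Pdgfa, Npc2 (0.079) and Gm49797 (0.0799) to Pdgfra, and Dad1 (0.0738) and Rpl10-ps6 (0.0872) to Fgfr1. Fgf2 was nearest to Txnip (0.156) and Prl2c2 (0.201), and Fgfr2 to Cdh26 (0.153) and Phf19 (0.218). With 5 libraries in 2 groups, this measure mostly reads the size of the change and the spread between replicates.

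The rest of the 2 families was examined as a list of 24 further PDGF and FGF genes, of which 9 could be tested and 8 had no count in any library. The fitted changes were divided, with Fgf1, Fgf11 and Fgf18 higher and Pdgfd and Fgf10 lower in Confine, and a median log2 fold change of 0.016. Of the 9, 55.6% were called, against 23.0% of all tested genes. Fgf1, Fgf11 and Fgf18 would not have passed the filter on low counts by their Ctrl libraries alone. Their entry into the test, and so the share called, depended on their Confine counts. The lists were chosen with earlier results of these data known, and their shares were not tested against that background. Fgf11, an intracellular FGF homologue that is not known as a receptor ligand, had no count in the Ctrl libraries and 25 and 39 in Confine, at least 9.38-fold higher than the floor of 3 counts per library (adjusted p 5.89e-05). Fgf18, a secreted FGF of mesenchyme and cartilage, had 3, 4 and 0 counts in Ctrl and 18 and 25 in Confine (log2 fold change 3.11, adjusted p 0.00595), and Fgf1, acidic FGF, had 8, 12 and 6 counts against 21 and 44 (log2 fold change 1.87, adjusted p 0.0204). Neither of these passed without Confine replicate 3, where the log2 fold changes were 2.73 and 1.10, and Fgf1 did not pass without Ctrl replicate 1 either, at 1.75.

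Pdgfd and Fgf10 were named after their values were seen. Pdgfd encodes the D chain, a ligand of PDGFRβ, and had 434, 341 and 409 counts in Ctrl and 164 and 176 in Confine (log2 fold change -1.27, adjusted p 0.000491). Fgf10, the other mesenchymal ligand of epithelial FGFR2, had 1530, 1042 and 1288 counts in Ctrl and 997 and 808 in Confine. Its log2 fold change of -0.58 had an adjusted p of 0.0414, and the call was lost without Ctrl replicate 1, Ctrl replicate 3 or either Confine library, with values between -0.61 and -0.51.

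Co-receptors and carriers of the ligands, a list of 21 genes with 16 tested, held 7 that rose and 3 that fell. The fallers, named after their values were seen, were Nrp1, Flrt3 and Gpc4. The median log2 fold change was 0.54, and 62.5% of those tested were called, against 23.0% of all tested genes. Syndecans are heparan sulfate proteoglycans that present FGFs to their receptors. Sdc4 had 78114, 75039 and 48163 counts in Ctrl and 341466 and 275670 in Confine, a 4.45-fold increase (log2 fold change 2.15, SE 0.19, adjusted p 1.33e-07). Sdc3 had 1373, 1447 and 844 counts in Ctrl and 3901 and 4516 in Confine (log2 fold change 1.76, adjusted p 4.82e-06). Without Confine replicate 1, 6 genes of this list were called in place of 10.

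The list of heparan sulfate synthesis and editing had 16 genes, all tested, of which 4 rose, 2 fell and 10 did not pass. The share called was 37.5%, against 23.0% of all tested genes, and the median log2 fold change was 0.14. The fallers were the 6-O-sulfotransferases Hs6st2, with 1369, 1203 and 960 counts in Ctrl and 391 and 400 in Confine (log2 fold change -1.62, adjusted p 7.6e-06), and Hs6st1 (-1.04, adjusted p 0.00259), which did not pass without Confine replicate 1 (-0.99). The risers included the extracellular 6-O-endosulfatases Sulf1 (log2 fold change 1.12, adjusted p 0.000208) and Sulf2 (1.11, adjusted p 2e-04), which remove the groups those enzymes add. Sulf1 had 1496, 1257 and 982 counts in Ctrl and 3392 and 2249 in Confine, and Sulf2 had 811, 796 and 676 against 1602 and 1777. Hpse, heparanase, which cleaves heparan sulfate chains, had 2, 12 and 1 counts in Ctrl and 32 and 48 in Confine (log2 fold change 2.94, adjusted p 0.00347), and did not pass without Confine replicate 3 (2.48). Hpse would not have passed the filter on low counts by its Ctrl libraries alone, so its entry into the test depended on its Confine counts. The remaining riser was Ext1, a chain polymerase subunit. Hs6st1, Sulf1, Sulf2 and Ext1 were named after their values were seen.

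Of 7 proteases known to process PDGF or FGF ligands, 5 were tested, and 2 rose and 1 fell. The share called was 60%, against 23.0% of all tested genes, and the median log2 fold change was 0.40. Plat, tissue plasminogen activator, which activates the C chain, had 375, 410 and 318 counts in Ctrl and 1762 and 1708 in Confine (log2 fold change 2.19, adjusted p 9.16e-08). Pcsk6, a proprotein convertase, had 444, 225 and 207 counts in Ctrl and 51 and 54 in Confine (log2 fold change -2.50, adjusted p 1.1e-05). Furin, a convertase of the PDGF A and B chains named after its values were seen, rose by a log2 fold change of 0.68 (adjusted p 0.0105). It did not pass without Ctrl replicate 3, without Confine replicate 1 (0.53) or with library size alone (0.47).

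Of 38 adaptors and kinases, all tested, 2 rose, Map2k1 among them, and 2 fell. The share called was 10.5%, against 23.0% of all tested genes, and the median log2 fold change was 0.036. Map2k1, which encodes the kinase MEK1, had 1106, 721 and 589 counts in Ctrl and 2024 and 1649 in Confine (log2 fold change 1.15, adjusted p 0.000305). Frs3, an FGF receptor docking protein, had a log2 fold change of 1.60 that did not pass (adjusted p 0.0833). The number called in this list moved between 1 and 13 over the alternatives: it was 10 without Ctrl replicate 2, 2 without Confine replicate 1, 1 without Confine replicate 3, 10 with library size alone and 13 with the identical columns as 2 samples, so nothing is read from its share. Of 13 phosphatases and degradation factors of the receptors, 3 rose and 10 did not pass, with a median of 0.16. The 23.1% called lay near the 23.0% of all tested genes, so nothing is read from this count. The genes that rose were Cblb, a ubiquitin ligase (1.18, adjusted p 0.000561), Socs3, a cytokine signalling inhibitor (1.24, adjusted p 0.000109), and Sh2b3. Sh2b3 was named after its values were seen.

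Feedback inhibitors and early targets of the pathway numbered 20, of which 19 had a row and 17 were tested. Of these, 9 rose, 2 fell and 6 did not pass, with a median log2 fold change of 0.74. The share called was 64.7%, against 23.0% of all tested genes. Ier3, an immediate early gene, had 5602, 4082 and 4270 counts in Ctrl and 35459 and 31310 in Confine (log2 fold change 2.79, adjusted p 2.92e-09). Fosl1, an AP-1 subunit, had 672, 291 and 320 counts against 3351 and 2710 (2.79, adjusted p 1.64e-07), and the ETS factor Etv1 had 162, 188 and 127 against 755 and 571 (2.00, adjusted p 1.48e-06). The ERK phosphatase gene Dusp5 (1.66, adjusted p 0.000134) and, named after its values were seen, the feedback inhibitor Spry2 (1.06, adjusted p 0.000269) rose as well. Dusp4, below the filter and named after its values were seen, had no count in the Ctrl libraries and 11 and 13 in Confine. Its Confine mean was 3.48 times the highest Ctrl floor of 3 counts. Fos moved the other way, with 961, 253 and 452 counts in Ctrl and 61 and 105 in Confine (-2.74, adjusted p 8.1e-05), and the other gene that fell was Ccnd1, cyclin D1, named after its values were seen.

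**Figure D4:**
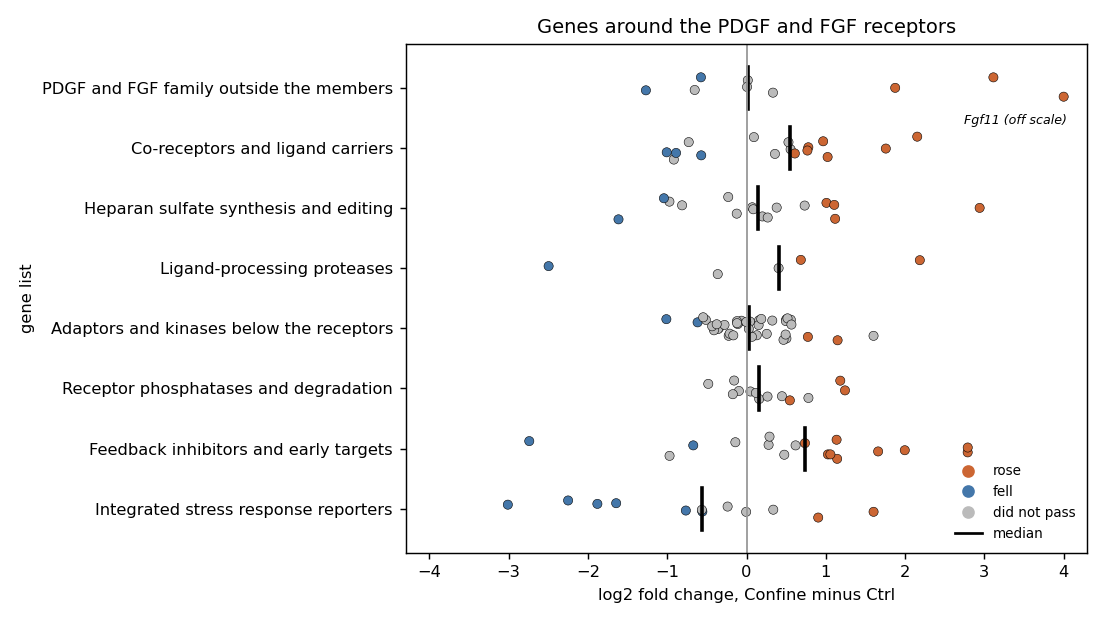
Log2 fold change of Confine over Ctrl (edgeR) of every tested gene in 8 pathway lists, with called genes in colour, the list median as a bar and values past 4 drawn at the edge of the axis. The median is 0.74 for feedback inhibitors and early targets, 0.54 for co-receptors and carriers, 0.036 for adaptors and kinases and -0.56 for integrated stress response reporters.

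Reporters of the integrated stress response were listed because ATF4 is known to switch on Fgf21. Of 12 genes, all tested, 2 rose, 6 fell and 4 did not pass, with a median log2 fold change of -0.56. The share called was 66.7%, against 23.0% of all tested genes, and fewer were called without either Confine library. The genes of amino acid synthesis led the fall. Cth had 194, 150 and 136 counts in Ctrl and 23 and 18 in Confine (-3.01, adjusted p 2.06e-06), Phgdh had 31368, 19978 and 20642 against 5628 and 4794 (-2.25, adjusted p 2.75e-07), Asns had 6909, 4337 and 4493 against 1601 and 1343 (-1.88, adjusted p 2.2e-06) and Psat1 had 20329, 12390 and 12050 against 5164 and 4645 (-1.64, adjusted p 1.15e-05). The other genes that fell were Chac1 (-0.77, adjusted p 0.0108) and Atf4 (-0.56, adjusted p 0.0453), named after their values were seen. The adjusted p of Atf4 lay near the threshold. Neither Chac1 nor Atf4 was followed individually under the alternatives. Vldlr, a lipoprotein receptor, rose (1.60, adjusted p 0.000107), as did Atf3, named after its values were seen.

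Marker lists were read as a check of the label. Fibroblast markers summed to between 8814 and 9738 CPM in Ctrl and between 15922 and 16772 CPM in Confine, and Col3a1 was among the 5 of 12 that rose (log2 fold change 2.21, adjusted p 5.78e-08), while Postn fell (-0.96, adjusted p 0.00557); Lum, Thy1 and Fap, however, never exceeded 2 counts per library, and Dcn had 2, 0 and 0 in Ctrl and 27 and 3 in Confine. Mural markers summed to 215 to 232 CPM in Ctrl and 442 to 446 CPM in Confine. Most of this sum was Cspg4, at 216 ± 9.55 CPM in Ctrl and 428 ± 7.78 CPM in Confine. Cspg4 (0.98), Des (1.43) and Notch3 (3.37, adjusted p 4.4e-06) were up and Rgs5 was down (-2.57, adjusted p 0.0165, not passing without either Confine library). Mcam, below the filter, had 14, 5 and 7 counts in Ctrl and 1 and 3 in Confine, and Kcnj8 and Abcc9 were at 0. Endothelial markers summed to at most 7.83 CPM, 3 of 8 were at 0 in every library, and Erg fell (-1.81, adjusted p 0.000892). Epithelial markers, of which none passed the filter, summed to at most 0.675 CPM, with Epcam, Krt18, Cldn3 and Cldn4 at 0. Leukocyte markers summed to 15.8 to 17.8 CPM in Ctrl and 35.6 to 41.3 CPM in Confine, with Cd68 (2.67), Csf1r (1.45) and Cd14 (0.92) up, Lyz2 down (-2.64) and Ptprc, the pan-leukocyte gene, at no more than 2 counts. Platelet markers, a cell type rich in PDGF, summed to 10.2 to 15.8 CPM in Ctrl and 10.2 to 17.6 CPM in Confine, and Ppbp (-1.74) and Pf4 (-1.93, adjusted p 0.0299, not passing without Ctrl replicate 2 or either Confine library) fell while Itga2b rose (0.93, adjusted p 0.0268). Postn, Cspg4, Des, Mcam, Csf1r, Cd14 and Itga2b were named after their values were seen. The part of these markers in the changes of Pdgfa, Pdgfra, Fgfr1 and Fgfr2 was not tested.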

How the data were processed

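Polyadenylated RNA of MEF was sequenced from stranded (dUTP) libraries, and the authors deposited raw counts per gene in 6 columns, 3 Ctrl and 3 Confine. The submitters' processing notes name Trim Galore 0.6.10, HISAT2 2.1.0, SAMtools 1.5, featureCounts and the build mm10; the annotation, the strand setting and the treatment of reads with several positions are not given in the sources used here, and they could move counts between overlapping genes. The table holds no comparison made by the authors, and all 6 columns were read. Samples were grouped by their titles. Confine columns 1 and 2 differed in 0 of 55335 rows and were counted once. Symbols, positions and exon lengths came from GENCODE M21 (GRCm38), in which 54587 identifiers were found in the same version and 55154 in any version.

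In R 4.3.3, genes were filtered with filterByExpr of edgeR 4.0.16, scaled by TMM (factors 0.910 to 1.08) and tested with the quasi-likelihood test (residual degrees of freedom 3, prior degrees of freedom 14.8 in the median), adjusted by Benjamini-Hochberg; the scripts were checked on simulated data. The fit had 3 Ctrl and 2 Confine libraries. A call required an adjusted p under 0.05, and a second rule an absolute log2 fold change above 1.5. CPM used TMM-scaled totals, RPKM divided CPM by merged exon length, and the floor of 3 counts was 0.101 to 0.128 CPM; as reads are not independent molecules, the floors and the exact interval of Fgf21 cover counting error only, while the intervals of fold changes include the spread between libraries. Named genes were the 10 members and the 2 nearest in pattern to each called member. From each list, those past the second rule were named (at most 6, or where none passed the 2 of largest change). Some further list genes, Dusp4 among them, were named after their values were seen. The members and lists were chosen with earlier results of these data known. Some genes of the lists are counted but not reported by name here. Start windows are from RefSeq. Alternatives were other scalings, filters and tests (DESeq2 1.42.0, limma 3.58.1 with voom, glmTreat), the identical columns as 2 samples, a replicate block, leaving out each library and, chosen after seeing the data, exon lengths of the basic transcript set.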

Additional observations from a re-analysis of the deposited data

How the results depend on the processing

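The calls of Pdgfa, Pdgfra and Fgfr2 held under all 15 alternatives with a value for each gene, with log2 fold changes of 0.96 to 1.34, 0.63 to 0.91 and -2.34 to -1.96, and none of the members changed direction under these alternatives. Of the members, 5 were called as reported and 4 to 6 when a library was left out; 1 was called when edgeR's glmTreat tested against an absolute log2 fold change of 1.5, and 2 against 0.5. Over all genes, 3654 were called, and 2054 to 4426 when a library was left out, the lowest without Confine replicate 3 and then 2256 without Confine replicate 1; a lone Confine library is assumed to vary like Ctrl. With the fold cutoff, 1271 genes were called, 1078 to 1290 when a library was left out, and 812 with at least 10 counts required in every library. With library size alone, 4249 genes were called at 34.0% upregulated, against 55.7% under TMM. With exon lengths of the basic transcript set, the ratio of Pdgfrb to Pdgfra in Ctrl moved from 7.44 to 6.50. That of Pdgfa to Pdgfc moved from 2.68 to 1.97 in Ctrl and from 6.96 to 5.10 in Confine. The sum of the FGF receptors moved from 11.9 to 22.8 RPKM in Ctrl and from 17.3 to 32.8 in Confine. For Pdgfa, Pdgfb and Pdgfc the sum moved from 11.9 to 14.1 RPKM in Ctrl and from 21.9 to 24.7 in Confine. Only the exon lengths differed in these moves, since the CPM values stayed the same. Deviations from group means were correlated over 15881 genes. The correlations with Confine replicate 1 were 0.094 for Ctrl replicate 1 and -0.083 for Ctrl replicate 2, and Ctrl replicate 3 with Confine replicate 3 gave -0.0075. The deviations of 2 Confine libraries mirror each other, so these correlations cannot decide whether numbers are pairs. The main fit did not read the numbers as pairs. With the replicate block, the identical columns taken as number 2, 2528 genes and 4 members were called (Fgf2 at 0.96, adjusted p 0.0906, and Fgf10, Furin and Fgf1 not passing); taken as number 1, 4933 genes and 6 members were called, with Fgf7 at -0.53 (adjusted p 0.0201).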
